A study of Homo sapiens with 12 samples.

Results

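Aminoacyl-tRNA synthetases are the enzymes that join each amino acid to its tRNA. The set described here held 38 genes picked by symbol from the 26334 gene symbols of the count table. The rule used no measured values, but earlier results of these data were known when it was set. The genes were 20 cytosolic enzymes, 16 mitochondrial enzymes (symbols ending in ARS2) and the scaffold proteins AIMP1 and AIMP2. All 38 were found and all 38 were among the 12032 genes tested. The cells were A673, an established Ewing sarcoma line, labelled shA673-1c; the labels do not explain the prefix and name no other line or clone. The titles of all 12 also carry the tag CTL, which the labels do not explain either. All 12 libraries came from cells grown with blasticidin and zeocin, and the groups were 0, 1, 2 and 4 h of 5 µM actinomycin D, an inhibitor of transcription, with 3 biological replicates each. Polyadenylated RNA was sequenced. There was no vehicle series and no spike-in, so every level and slope is relative to the other transcripts of its library.

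Each synthetase attaches its amino acid in 2 steps, by way of an aminoacyl-adenylate, and belongs to class I or class II according to the fold of its catalytic domain. The 8 cytosolic enzyme genes DARS, EPRS, IARS, KARS, LARS, MARS, QARS and RARS encode subunits of the multi-synthetase complex, which AIMP1, AIMP2 and EEF1E1 hold together, and EPRS carries the glutamate and the proline enzyme in a single chain. Mitochondria translate their own mRNAs with a separate set of nuclear-encoded enzymes. GARS and KARS serve both compartments from a single gene. Several cytosolic synthetase genes are known targets of ATF4, the transcription factor of the amino acid response, which binds C/EBP-ATF response elements.

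Library totals ranged from 9147018 to 11194705 counts, and the 38 transcripts took 0.639% to 0.702% of them. The short-lived controls MYC and JUN had slopes of -1.12 and -0.89 log2 per hour, in the direction the time labels give. Of 8 Ewing sarcoma markers, 7 had a mean of at least 10 counts, whereas CD99 was listed at 0 in all libraries, which cannot tell absent RNA from uncounted reads. All 8 markers of endothelial, haematopoietic and epithelial cells were below that mean, with 3 to 14 counts per library summed over the list.

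The promoters were searched for the core of the C/EBP-ATF response element, TGATGNAA on either strand, since it is the letter pattern most tied to this gene family. RefSeq promoters (GRCh38.p14, from 250 bases before to 50 after each annotated start) were found for 32 of the 38 genes, as 44 promoters. Of these 32 genes, 8 (25%) held the core in a promoter, against 4.46% of all 27305 genes in the table. Counted by promoter, 8 of 44 (18.2%) held it, against 3.62% of 35116. They belonged to 7 of 16 matched cytosolic enzymes and 1 of 14 matched mitochondrial enzymes. The windows below are 30 bases each, 5′ to 3′ in the direction of the gene, with the core, or its reverse complement where it lies on the other strand, in capitals.
AARS, chr16:70289675-70289704, minus strand: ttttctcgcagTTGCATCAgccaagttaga
CARS, chr11:3057407-3057436, minus strand: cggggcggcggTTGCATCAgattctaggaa
GARS, chr7:30594834-30594863, plus strand: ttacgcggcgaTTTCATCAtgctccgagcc
IARS, chr9:92293692-92293721, minus strand: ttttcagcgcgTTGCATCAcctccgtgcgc
MARS, chr12:57488053-57488082, plus strand: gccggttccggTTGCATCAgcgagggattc
NARS, chr18:57621804-57621833, minus strand: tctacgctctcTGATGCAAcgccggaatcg
TARS, chr5:33440956-33440985, plus strand: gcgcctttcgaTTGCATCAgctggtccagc
YARS2, chr12:32756076-32756105, minus strand: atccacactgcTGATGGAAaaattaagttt
In 5 of these genes (CARS, IARS, MARS, NARS and TARS, all cytosolic) the core began within 14 bases of the annotated start. A match of letters is a description and not a binding site.

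The time course asks how fast each transcript was lost once transcription stopped. With a straight line in time per gene (edgeR's quasi-likelihood test, with libraries scaled by TMM, the trimmed mean of M-values, and a Benjamini-Hochberg adjusted p below 0.05), 8 of the 38 transcripts fell and 21 rose relative to this scaling. Of all tested genes, 3859 of 12032 (32.1%) fell and 3694 (30.7%) rose. The fallen transcripts were 6 of 16 mitochondrial enzymes (PARS2, MARS2, YARS2, WARS2, HARS2 and TARS2), 1 of 20 cytosolic enzymes (RARS) and 1 of 2 scaffold proteins (AIMP2). The transcripts that rose were 14 cytosolic and 7 mitochondrial enzymes. The median slope of the 38 was 0.055 log2 per hour and that of all tested genes 0.0093. The same 8 fell under every scaling tried, but the 21 rises did not hold: scaling to GAPDH plus ACTB moved the median slope of all genes by -0.138 and left 28 transcripts falling and 0 rising (edgeR; 30 falling and 0 rising at an unadjusted p below 0.05, with VARS and VARS2 at positive slopes that did not pass), and scaling to library totals left 11 falling (the 8 with FARSA, TARS and FARS2) and 7 rising. Of all 12032 genes, 7729 fell (64.2%) and 112 rose (0.931%) with GAPDH plus ACTB, and 4702 fell (39.1%) and 2244 rose (18.7%) with library totals. Under all of these scalings the slopes of 27 of the 38 lay above that of the median gene, and these were 17 of 20 cytosolic and 9 of 16 mitochondrial enzymes and AIMP1 under TMM. The contrast of 4 h with 0 h gave 8 lower and 20 higher (edgeR), against 3797 (31.6%) and 3448 (28.7%) of all tested genes, and GARS was the transcript called by the slope alone. These fits leave out the pairing by replicate number. With that number as a block, 10 of the 38 fell and 24 rose by slope (TMM), against 4182 and 4356 of all 12032 genes.

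**Figure D1:**
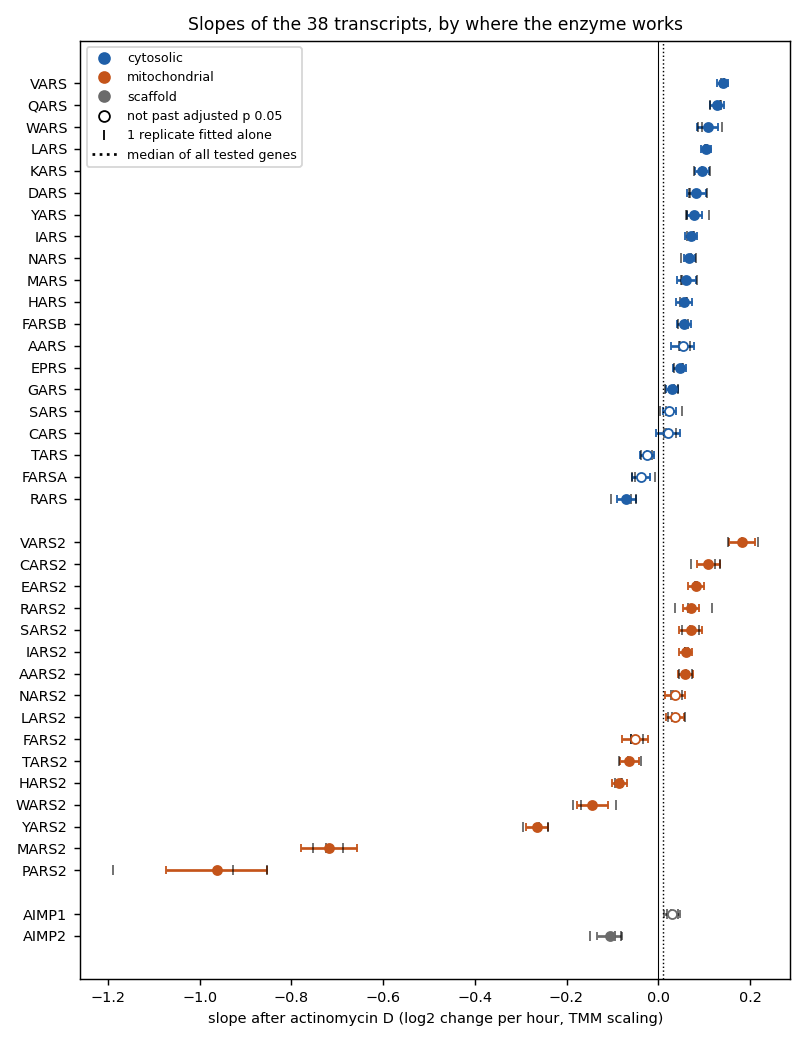
Slope of each of the 38 transcripts in log2 change per hour under TMM scaling (points; bars are the standard error of the fit over 12 libraries), grouped as cytosolic, mitochondrial or scaffold, with ticks for each replicate fitted alone. The cytosolic enzymes lie between -0.070 and 0.14, whereas the mitochondrial ones spread from -0.96 (PARS2) to 0.18 (VARS2); under GAPDH and ACTB scaling all slopes shift to the left and only VARS and VARS2 stay above 0.

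PARS2, the mitochondrial prolyl-tRNA synthetase, was lost fastest. Its gene lies on chromosome 1 of GRCh38 from 54756898 to 54764523 (GENCODE version 44, minus strand), with 2 exons in the canonical transcript. Its level, in CPM (read counts relative to the TMM-scaled library total), was 6.09, 5.11 and 5.41 CPM at 0 h in replicates 1, 2 and 3, then 4.78, 4.32 and 2.81 CPM at 1 h, 1.39, 0.607 and 0.870 CPM at 2 h and 0.710, 0.580 and 0.224 CPM at 4 h. Every library at 2 and 4 h was below every library at 0 and 1 h, and the mean stood at 71.7%, 17.3% and 9.12% of 0 h after 1, 2 and 4 h. The slope was -0.96 log2 per hour (SE, the standard error of the fit, 0.11, edgeR adjusted p = 1.15e-06), a half-life of 1.04 h relative to the scaling, with 0.932 to 1.17 h at 1 standard error either way. That half-life is a single rate for the whole course, whereas the mean fell more steeply up to 2 h than from 2 to 4 h. With 2 to 62 counts per library, PARS2 was also the least counted of the 38, so counting error limits its values at 4 h most.

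MARS2, the mitochondrial methionyl-tRNA synthetase, came next. Its gene, on chromosome 2 from 197705369 to 197708395 (plus strand), has a single exon. Its level was 19.7, 18.4 and 14.7 CPM at 0 h, then 12.6, 11.2 and 9.79 CPM at 1 h, 5.16, 4.75 and 3.96 CPM at 2 h and 3.43, 2.80 and 2.13 CPM at 4 h. No 2 time points overlapped, and 63.6%, 26.2% and 15.8% of the 0 h mean were left after 1, 2 and 4 h. The slope was -0.72 (SE 0.061, edgeR adjusted p = 5.13e-08; -0.75 with library totals and -0.85 with GAPDH and ACTB scaling), a half-life of 1.39 h under TMM. This half-life too is a single rate for the course, and the mean fell more steeply up to 2 h than from 2 to 4 h. For comparison, JUN and MYC had half-lives of 1.12 and 0.895 h in the same fit.

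The 4 other mitochondrial transcripts that fell did so more slowly. YARS2, the tyrosyl enzyme (chromosome 12, 32727490 to 32755897, minus strand), stood at 40.6, 46.2 and 40.6 CPM at 0 h and at 21.1, 22.6 and 17.8 CPM at 4 h, with no overlap, a slope of -0.26 (SE 0.024, edgeR adjusted p = 1.19e-07) and a half-life of 3.79 h. WARS2, the tryptophanyl enzyme (chromosome 1, 119031216 to 119140654, minus strand), went from 19.0, 18.4 and 16.1 CPM to 12.2, 14 and 9.63 CPM, a slope of -0.14 (SE 0.034, edgeR adjusted p = 0.00151) and a half-life of 6.95 h. These half-lives are relative to the TMM scaling, and that of WARS2 is longer than the 4 h course. With library totals the slopes of YARS2 and WARS2 were -0.30 and -0.18, and with GAPDH and ACTB scaling -0.40 and -0.28. Both transcripts declined at each successive time point in their means. HARS2, the histidyl enzyme, held 98.9% of its 0 h mean after 1 h and 79.8% after 4 h, with 52.7, 54.6 and 51.6 CPM at 0 h and 41.1, 44.5 and 41.4 CPM at 4 h (slope -0.085, adjusted p = 0.00024, edgeR). TARS2, the threonyl enzyme, stood at 104%, 101% and 85.1% of 0 h after 1, 2 and 4 h (slope -0.063, adjusted p = 0.0115, edgeR), with the lower mean at 4 h alone. That call did not hold without replicate 1 (adjusted p = 0.101, edgeR) or without replicate 2 (adjusted p = 0.0539, edgeR). With the replicate number as a block TARS2 passed (adjusted p = 0.00612, edgeR). FARS2, the phenylalanyl enzyme, was at 13.0, 12.1 and 14.4 CPM at 0 h and at 11.1, 11.5 and 11.4 CPM at 4 h, and its slope of -0.051 did not pass the test under TMM (adjusted p = 0.132, edgeR). It fell with library totals (-0.090, adjusted p = 0.0159, edgeR) and with GAPDH and ACTB scaling (-0.19, adjusted p = 0.000119, edgeR).

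**Figure D2:**
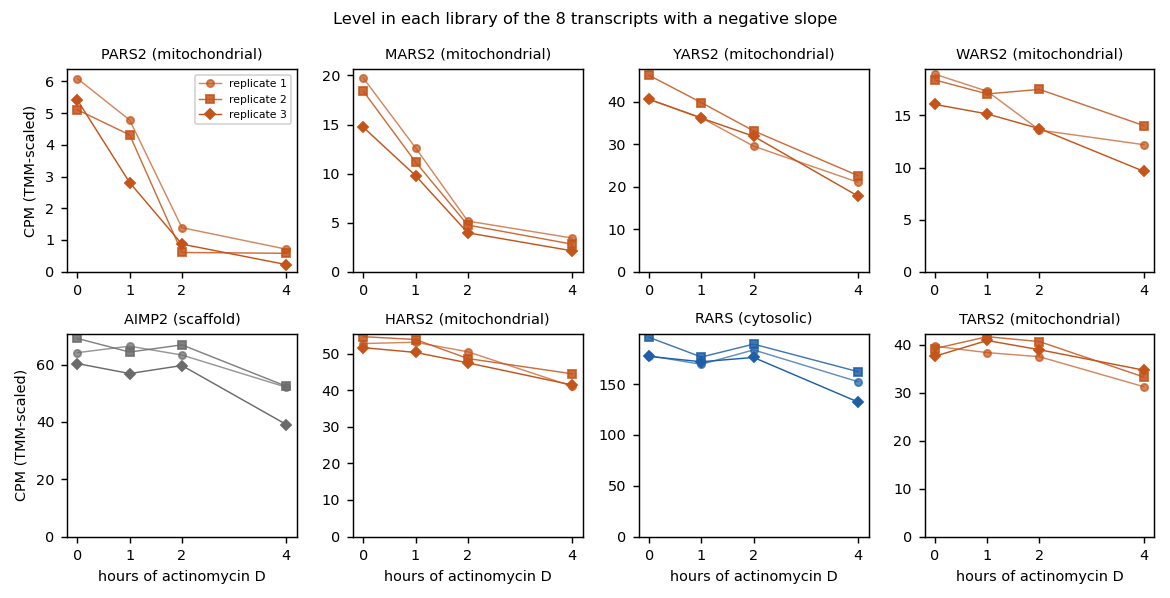
Level in CPM (TMM-scaled, axes from 0) of the 8 transcripts that fell, against hours of actinomycin D, with a line for each of 3 replicates. PARS2 and MARS2 lose most of their level by 2 h, the means of YARS2 and WARS2 decline at each time, and AIMP2, RARS and TARS2 lie close to their 0 h level until 2 h and are lower at 4 h.

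The other mitochondrial enzymes had slopes from 0.037 to 0.18 under TMM scaling, and all of these except VARS2 were negative under GAPDH and ACTB scaling. VARS2, the valyl enzyme (chromosome 6, 30914205 to 30926459, plus strand), had the highest slope of the 38. It stood at 30.6, 25.5 and 33.3 CPM at 0 h, 36.5, 39.0 and 41.3 CPM at 1 h, 47.7, 36.3 and 42.9 CPM at 2 h and 55.7, 47.0 and 52.4 CPM at 4 h. Its lowest value after 0 h was above its highest at 0 h, and the slope was 0.18 (SE 0.029, edgeR adjusted p = 3.77e-05; 0.044 and adjusted p = 0.268 under GAPDH and ACTB scaling). The whole VARS2 transcript overlaps another annotated transcript on the same strand, and 77.5% of SARS2 overlaps one as well. Neither overlapping gene is listed by that name in the count table, and the values of VARS2 and SARS2 are uncertain to the extent that reads were shared. Same-strand overlaps with listed genes covered 6.16% of HARS2 (ZMAT2) and 3.91% of EARS2 (GGA2). CARS2 (cysteinyl) rose from 23.8, 20.4 and 21.9 CPM to 27.9, 29.3 and 32.0 CPM, and EARS2 (glutamyl) from 67.8, 69.2 and 75.5 CPM to 84.1, 87.6 and 93.8 CPM, in each case without overlap between 0 and 4 h under TMM. IARS2, AARS2, RARS2 and SARS2 rose with slopes of 0.060, 0.059, 0.072 and 0.070 (TMM; negative under GAPDH and ACTB scaling). The RARS2 call was lost without replicate 1 (adjusted p = 0.0522, edgeR), and that of SARS2 without replicate 2 or 3 (adjusted p = 0.116 and 0.0929, edgeR). RARS2 and SARS2 passed with the replicate number as a block (adjusted p = 0.000561 and 0.00917, edgeR). LARS2 and NARS2, with slopes of 0.037 each, did not pass the test, although NARS2 did with the replicate number as a block (adjusted p = 0.0463, edgeR).

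Among the 8 complex-bound enzymes, 7 rose and 1 fell under TMM scaling, with a median slope of 0.077. The shares of all tested genes were 30.7% rising and 32.1% falling. QARS, the glutaminyl enzyme, went from 123, 116 and 128 CPM at 0 h to 181, 169 and 174 CPM at 4 h, with no overlap (slope 0.13, SE 0.015, edgeR adjusted p = 1.72e-06). LARS, the leucyl enzyme that also senses leucine for mTORC1, went from 364, 385 and 379 CPM to 485, 503 and 497 CPM (slope 0.10, SE 0.012, edgeR adjusted p = 1.12e-06). KARS (lysyl), DARS (aspartyl), IARS (isoleucyl), MARS (methionyl) and EPRS (glutamyl-prolyl) had slopes of 0.095, 0.082, 0.072, 0.061 and 0.046. Under GAPDH and ACTB scaling all 7 of these slopes were negative, and without replicate 1 the calls of MARS and EPRS were lost (adjusted p = 0.154 and 0.0588, edgeR). MARS and EPRS passed under TMM with the replicate number as a block (adjusted p = 2.05e-05 and 0.000327, edgeR). RARS, the arginyl enzyme (chromosome 5, 168486451 to 168519301, plus strand), fell under every scaling. It stood at 178, 196 and 177 CPM at 0 h, 170, 177 and 172 CPM at 1 h, 184, 189 and 176 CPM at 2 h and 152, 162 and 132 CPM at 4 h. Its 4 h libraries were below all of its others (slope -0.070, SE 0.020, edgeR adjusted p = 0.00607).

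Of the proteins that hold the complex together, AIMP2 and EEF1E1 fell and AIMP1 did not pass the test under TMM. AIMP2 (chromosome 7, 6009255 to 6023834, plus strand) stood at 64.1, 69.1 and 60.3 CPM at 0 h, 66.4, 64.3 and 56.8 CPM at 1 h, 63.3, 66.9 and 59.6 CPM at 2 h and 52.1, 52.4 and 39.1 CPM at 4 h. It was lower only at 4 h, with a slope of -0.11 (SE 0.028, edgeR adjusted p = 0.0032). Of its transcript, 44.4% lies opposite EIF2AK1, and whether the counting used the strand is not stated. EEF1E1, which is not one of the 38, went from 27.1, 32.6 and 28.7 CPM to 20.6, 24.1 and 21.4 CPM (slope -0.092, SE 0.027, edgeR adjusted p = 0.00776). AIMP1 stood at 86.2, 99.4 and 87.2 CPM at 0 h and at 95.7, 102 and 93.2 CPM at 4 h, and its slope of 0.030 passed the test under TMM with the replicate block but not without it (adjusted p = 0.0399 and 0.129, edgeR). With GAPDH and ACTB scaling AIMP1 fell (-0.11, adjusted p = 0.000302, edgeR). RARS and AIMP1, neighbours in the complex, therefore had slopes of opposite sign under TMM (AIMP1 was at -0.0089 with library totals).

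Of the 12 cytosolic enzymes outside the complex, 7 rose, 0 fell and 5 did not pass the test under TMM, with a median slope of 0.055 (0 fell by DESeq2's Wald test too, and 8 of 12 had an unadjusted p below 0.05, all with a positive slope). For all tested genes the shares in the edgeR slope fit were 30.7% rising and 32.1% falling. VARS, the valyl enzyme, had the highest slope of the cytosolic enzymes. It went from 258, 244 and 256 CPM at 0 h through 288, 269 and 267 CPM at 1 h and 321, 295 and 297 CPM at 2 h to 377, 362 and 375 CPM at 4 h. Its replicates did not overlap between any 2 time points, with a slope of 0.14 (SE 0.012, edgeR adjusted p = 7.11e-08; 0.0024 under GAPDH and ACTB scaling). WARS, the tryptophanyl enzyme known to be induced by interferon, had 293, 322 and 254 CPM at 0 h and 431, 405 and 333 CPM at 4 h, where the groups did not overlap (slope 0.11, adjusted p = 0.000843, edgeR). YARS, NARS, HARS, FARSB and GARS rose with slopes of 0.079, 0.068, 0.057, 0.056 and 0.030 (TMM; all negative, with WARS, under GAPDH and ACTB scaling). Of these, HARS lost its call without replicate 1 (adjusted p = 0.0604, edgeR), and GARS, which was near the threshold (adjusted p = 0.0483, edgeR), lost it without replicate 1, 2 or 3 (adjusted p = 0.238, 0.103 and 0.0873, edgeR). HARS and GARS both passed with the replicate number as a block (adjusted p = 0.000154 and 0.00637, edgeR). AARS, CARS, SARS, TARS and FARSA did not pass the test, at slopes of 0.053, 0.021, 0.024, -0.025 and -0.038. With the replicate number as a block AARS passed with a positive slope (adjusted p = 4.25e-05, edgeR) and TARS and FARSA with a negative slope (adjusted p = 0.0213 and 0.0214, edgeR). FARSA and FARSB, which encode the α and β subunits of the cytosolic phenylalanyl enzyme, thus had slopes of opposite sign under TMM (both negative under GAPDH and ACTB scaling, at -0.18 and -0.082). FARSA went from 137, 143 and 127 CPM to 137, 125 and 112 CPM between 0 and 4 h, and FARSB from 179, 200 and 184 CPM to 213, 230 and 207 CPM.

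By catalytic class, 12 of 18 class I transcripts rose and 4 fell under TMM, with a median slope of 0.072. Of 17 class II transcripts, 8 rose and 3 fell, with a median of 0.037. EPRS carries a domain of each class and the scaffold proteins carry neither, and they were left out of this count.

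The median slope was 0.059 for the 20 cytosolic and 0.037 for the 16 mitochondrial transcripts, a difference of 0.022 log2 per hour. In the 3 replicates fitted alone the difference was 0.033, 0.028 and 0.0044 (SD 0.015). It kept its sign under every scaling (0.021 to 0.022), was 0.051 without the 4 h libraries and was 0.011 without MARS2 and PARS2, a choice made after their values were seen. No test was made of this difference. The slopes had an SD over genes of 0.053 among the cytosolic and 0.31 among the mitochondrial transcripts, beside 0.22 over all tested genes. Without MARS2 and PARS2 the SD of the mitochondrial slopes was 0.12.

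The 16 mitochondrial genes could be set against the cytosolic gene for the same amino acid, in 17 pairs (FARS2 against each of FARSA and FARSB, and EPRS against both EARS2 and PARS2). A difference within a pair does not depend on the scaling of the libraries. The cytosolic slope was the higher in all 3 replicates for 10 pairs and the lower in all 3 for 4 pairs, and 3 pairs were mixed. The ratio of cytosolic to mitochondrial counts was higher in all 4 h than in all 0 h libraries for 7 pairs. It was lower in all for 3 pairs and overlapped for 7, among them IARS and IARS2, NARS and NARS2, TARS and TARS2, and VARS and VARS2. The widest differences were 1.01 for EPRS minus PARS2 and 0.78 for MARS minus MARS2, followed by 0.34 for YARS minus YARS2 and 0.25 for WARS minus WARS2. The ratio of MARS to MARS2 counts was 16.0 at 0 h and 121 at 4 h, and that of YARS to YARS2 was 5.49 and 14.1. The 4 pairs in which the mitochondrial slope was the higher in all replicates were RARS and RARS2 (difference -0.14), CARS and CARS2 (-0.088), VARS and VARS2 (-0.043) and EPRS and EARS2 (-0.036). The ratio of RARS to RARS2 counts went from 3.33 to 2.21. AARS and AARS2 (-0.0054) and SARS and SARS2 (-0.046) had mixed signs, as did FARSA and FARS2 (0.014).

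**Figure D3:**
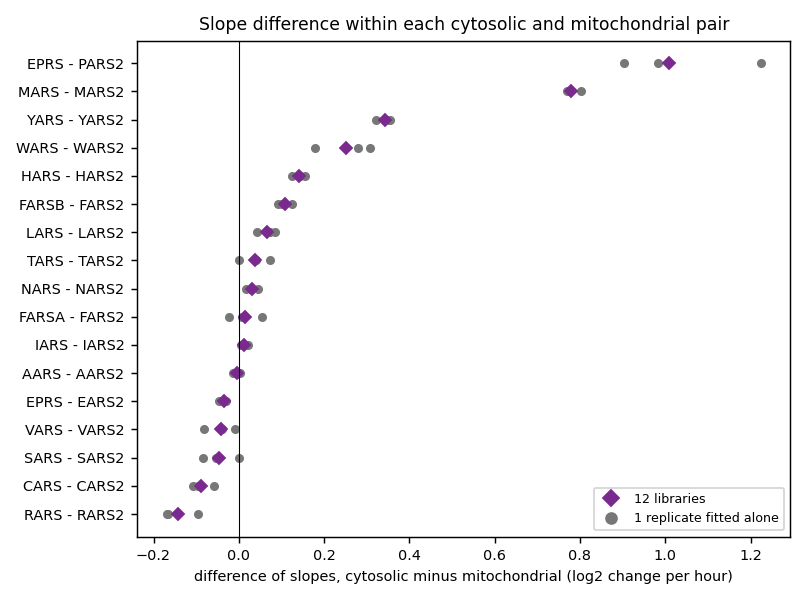
Difference of slopes (log2 change per hour, cytosolic minus mitochondrial) for 17 pairs of enzymes for the same amino acid; diamonds use all 12 libraries and grey points are replicates 1, 2 and 3 fitted alone. The pairs with PARS2, MARS2, YARS2 and WARS2 lie farthest to the right, and RARS minus RARS2, at -0.14, lies farthest to the left.

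Before actinomycin D, the mitochondrial transcripts were the less abundant in every pair. On the scale of CPM per kb of transcript, the median log2 level at 0 h was 6.48 ± 0.026 (SD over 3 libraries) for cytosolic and 3.66 ± 0.048 for mitochondrial enzymes. The difference was 2.81 ± 0.069 on the log2 scale, 7.03-fold, and 2.63 per kb of coding sequence. KARS was the highest at 185 ± 7.3 CPM per kb, followed by SARS at 138 ± 3.3, GARS at 134 ± 3.6 and TARS at 129 ± 4.4, and the ranges of mean ± SD of SARS and GARS, and of GARS and TARS, overlapped. CARS was the lowest cytosolic enzyme at 17.1 ± 2.1 CPM per kb. Among the mitochondrial enzymes IARS2 stood apart at 83.1 ± 4.2 CPM per kb, ahead of RARS2 at 24.7 ± 1.8 and HARS2 at 21.5 ± 0.61. The lowest were LARS2 at 6.75 ± 0.26, WARS2 at 6.39 ± 0.55, MARS2 at 5.82 ± 0.86 and PARS2 at 2.35 ± 0.21 CPM per kb, and the ranges of LARS2, WARS2 and MARS2 overlapped. The ratio within a pair ran from 1.42 for CARS over CARS2 and 1.48 for IARS over IARS2 to 17.3 for MARS over MARS2 and 47.3 for EPRS over PARS2. Across the 38 genes, level per kb and slope had a Spearman rho of 0.25 (0.19 over 11381 tested protein-coding genes, which share these libraries).

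**Figure D4:**
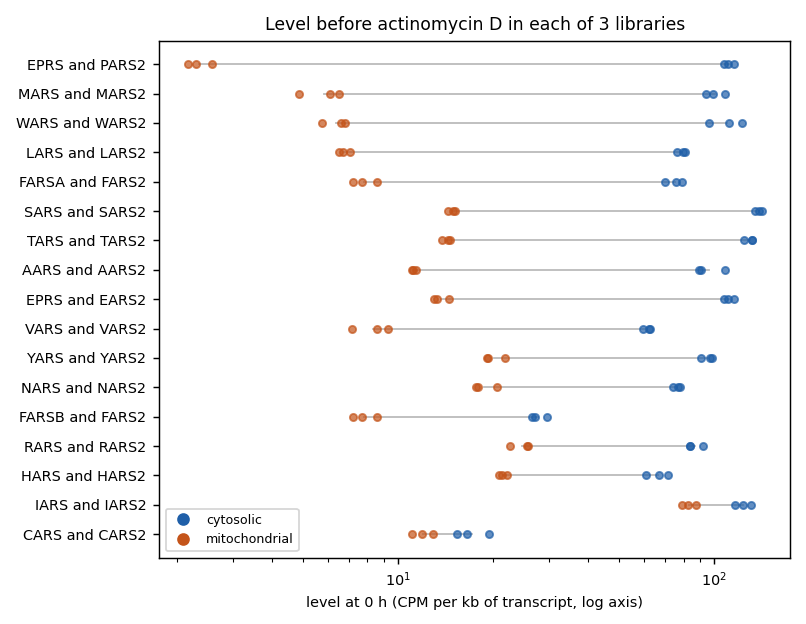
Level at 0 h in CPM per kb of transcript (log axis) in each of 3 libraries, for each pair of a cytosolic and a mitochondrial enzyme, ordered by their ratio. The cytosolic points lie to the right of the mitochondrial points in all 17 pairs, by 1.42-fold in CARS and CARS2 and by 47.3-fold in EPRS and PARS2.

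After 1 h, 1 of the 38 transcripts was lower than at 0 h and 0 were higher (edgeR), against 269 (2.24%) and 42 (0.349%) of all tested genes, and 1 and 3 had an unadjusted p below 0.05 in the same directions. DESeq2's Wald test called 1 lower and 0 higher as well. The transcript that was lower was MARS2, by -0.65 on the log2 scale (SE 0.15, edgeR adjusted p = 0.0386). This call was lost without replicate 1 (adjusted p = 0.239) and without replicate 2 (adjusted p = 0.495, edgeR). With the replicate number as a block MARS2 was lower by -0.65 (adjusted p = 1.05e-05, edgeR), in a fit where 1261 of 12032 genes were lower. Of all tested genes, 31 were lower at 1 h without replicate 1 and 1 without replicate 2. PARS2 had a log2 difference of -0.48 (adjusted p = 0.41 without and 0.0568 with the replicate block, edgeR). With the replicate number as a block, 5 transcripts were higher at 1 h under TMM: VARS2 by 0.38, QARS by 0.15, VARS by 0.12, WARS by 0.11 and IARS by 0.092 on the log2 scale (adjusted p = 0.00066, 0.0107, 0.013, 0.035 and 0.0278, edgeR). Of all 12032 genes, 744 (6.18%) were higher at 1 h in that fit. The 3 steps of the time course share libraries, so these values are not independent of the slopes.

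The transcripts with the fewest exons were those that fell most. The 7 genes with at most 7 exons in the canonical transcript were MARS2 (1), PARS2 (2), AIMP2 (4), YARS2 (5), WARS2 (6), FARS2 (7) and AIMP1 (7), and all except FARS2 and AIMP1, which did not pass the test, fell under TMM. Of the 31 with more exons, 3 fell (HARS2, RARS and TARS2). Of all tested protein-coding genes, 72.3% fell of those with a single exon, 40.2% with 2 to 7 exons, 28.1% with 8 to 14 and 25.1% with 15 or more. Every cytosolic enzyme had at least 11 exons, so exon number and compartment are partly the same split. Across the 38, exon number and slope had a Spearman rho of 0.54, and of 0.45 without MARS2 and PARS2. Over the 11381 tested protein-coding genes it was 0.20, with a median slope of -0.29 for 195 single-exon genes, -0.022 for 2 to 7 exons, 0.023 for 8 to 14 and 0.027 for 15 or more. These are descriptions across genes of the same libraries, and the limit of 7 exons was chosen after the values were seen.

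The 3′ UTRs were searched on the transcript strand for letter patterns known from RNA decay: the AU-rich pentamer ATTTA, the heptamer TATTTAT, which contains it, and the Pumilio element TGTANATA. Each was in a smaller share of the 38 than of the tested genes. These shares were not matched for 3′ UTR length, which ran from 71 bases (MARS) to 4972 (FARSB) among the 38. The pentamer was in 19 of 38 (against 74.8% of 11372 tested protein-coding genes with a 3′ UTR), the heptamer in 5 (13.2%, against 37.4%) and the Pumilio element in 4 (10.5%, against 31.4%). All 4 genes with a Pumilio element encode mitochondrial enzymes. Of these 4, MARS2, WARS2 and TARS2 fell, beside 6 of all 16 mitochondrial enzymes and 32.1% of all tested genes. The TARS2 call was lost without replicate 1 or 2, and a link between the element and the slope was not tested. The 4 Pumilio sites and both pentamers of PARS2 are printed below, each with up to 8 bases on either side and the pattern in capitals (GRCh38, GENCODE version 44 transcripts).
IARS2, chr1:220147810-220147833, plus strand: aagaattaTGTATATAtacatgca
MARS2, chr2:197708150-197708173, plus strand: taaaaattTGTAAATAgttcaaaa
TARS2, chr1:150507065-150507085, plus strand: gccttTGTACATAgatgaggc
WARS2, chr1:119031539-119031562, minus strand: tcaccattTGTACATAcataacta
PARS2, chr1:54757550-54757570, minus strand: ttatttgtATTTAaagtcatt
PARS2, chr1:54756910-54756930, minus strand: ttctattgATTTAataaagtc
The number of pentamers did not order the slopes. MARS2 had 6, WARS2 5 and PARS2 2, whereas YARS2, HARS2 and RARS had 0. FARSB, EARS2 and AIMP1 had 8 each, with slopes of 0.056, 0.082 and 0.030 under TMM (negative under GAPDH and ACTB scaling). Across the 38, pentamer number and slope had a Spearman rho of -0.12, beside -0.30 over the tested protein-coding genes.

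The transcripts with a C/EBP-ATF core in the promoter did not share a slope. Of the 8, 4 rose (GARS, IARS, MARS and NARS), 1 fell (YARS2) and 3 did not pass the test (AARS, CARS and TARS) under TMM. In that fit 30.7% of all tested genes rose and 32.1% fell. The 7 cytosolic ones had a median slope of 0.053, from -0.025 (TARS) to 0.072 (IARS), and the 9 matched cytosolic enzymes without the core a median of 0.056. The cores counted here are letters in a window of 300 bases, and a start used in these cells may differ from the annotated one.

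Genes that work beside the synthetases were given by list. For every list, the shares of all tested genes under TMM without the block were 32.1% falling and 30.7% rising. Of 17 genes of ATF4 and amino acid supply, 4 fell and 5 rose (TMM), with a median slope of 0.032. With the replicate block 5 fell and 9 rose, the added calls being SLC3A2 as falling and ASNS, PSAT1, MTHFD2 and SLC1A5 as rising (adjusted p = 1.77e-06, 0.00198, 0.00211, 0.0146 and 0.0119, edgeR). Of all 12032 genes, 4182 fell and 4356 rose in that fit. The 4 of the 17 genes with the lowest adjusted p without the block were SLC38A2, an amino acid transporter, at -0.57, TRIB3, a pseudokinase that binds ATF4, at -0.35, PYCR1, the last enzyme of proline synthesis, at 0.16 and PHGDH, the entry enzyme of serine synthesis, at 0.14. ATF4 itself had a slope of -0.0054 (adjusted p = 0.902, edgeR). Its mean stood at 84.1%, 84.2% and 95.2% of 0 h after 1, 2 and 4 h, a course that a straight line does not show. Its log2 difference at 1 h was -0.25 (adjusted p = 0.471 without and 5.54e-06 with the replicate block, edgeR). SLC38A2 stood at 636, 663 and 657 CPM at 0 h and at 145, 159 and 124 CPM at 4 h. Of 11 genes of tRNA maturation and export, 4 fell and 3 rose, and with the replicate block RPP30 of RNase P fell and the export receptor XPOT rose as well (adjusted p = 0.0158 and 0.00704, edgeR). CLP1, an RNA kinase of the tRNA splicing endonuclease complex, had a slope of -0.69 and went from 23.6, 27.6 and 23.1 CPM to 4.97, 2.80 and 3.13 CPM, while POP1 of RNase P had -0.21, TRNT1, which adds the CCA end, had -0.13 and ELAC2, which trims the 3′ end, had 0.081. The slopes of PYCR1 (0.021), PHGDH (-0.0028) and ELAC2 (-0.058) shifted with the other rises under GAPDH and ACTB scaling.

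The 3 genes that carry charged tRNA to the ribosome rose under TMM: TUFM, the mitochondrial elongation factor, at 0.13, EEF1A1 at 0.089 and EEF1A2 at 0.18 (under GAPDH and ACTB scaling -0.0092, -0.049 and 0.041). Of 4 genes that complete mitochondrial charging, QRSL1, a subunit of the enzyme that makes Gln-tRNA by amidation, fell at -0.098, and GATB, a partner subunit, rose at 0.078 (-0.061 under GAPDH and ACTB scaling). GATC, another subunit, had a slope of 0.021 (adjusted p = 0.233, edgeR). MTFMT, the formylase of the mitochondrial initiator tRNA that MARS2 charges, had a slope of -0.046 (adjusted p = 0.22, edgeR). Of 3 genes of the pathway that senses uncharged tRNA, IMPACT, which binds GCN1 and inhibits the activation of EIF2AK4, rose at 0.082, and GCN1 and EIF2AK4, at 0.038 and 0.017, did not pass the test (TMM; all 3 negative under GAPDH and ACTB scaling). GCN1 passed with the replicate block (adjusted p = 0.00835, edgeR). Of 4 tested genes of selenocysteine tRNA and proofreading, DTD1, which removes D-amino acids from tRNA, rose at 0.088 (-0.050 under GAPDH and ACTB scaling), and SEPSECS, DTD2 and PSTK, at -0.077, 0.030 and 0.017, did not pass the test. SEPSECS fell with the replicate block (adjusted p = 0.0416, edgeR). AARSD1 was listed at 0 in all libraries, with the same limit as CD99.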

How the data were processed

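The files hold raw read counts by gene symbol, deposited by the authors as whole numbers, for 12 poly(A)-selected, stranded libraries. Per the labels, the processing notes name FastQC, STAR and hg19, and the counting program and its strand setting are not given in the sources used here. The paper's methods for this kit describe Prinseq, STAR, Salmon and tximport without naming these libraries. Groups, times and replicate numbers came from the labels, and each column was matched to a sample title (0 columns unmatched). The members and all lists were chosen with earlier results of these data known, and the named genes are all 38 members and, per related list, the up to 4 genes of lowest adjusted p.

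The counts went into edgeR 4.0.16 (R 4.3.3; TMM factors, glmQLFit and glmQLFTest). Genes that averaged at least 10 counts per library were fitted with time in hours as a number, or as 4 groups for 4 h and 1 h against 0 h, without a block. Adjustment was by Benjamini-Hochberg over 12032 genes, the standard error came from the F statistic, and half-life is -1 divided by the slope. The fit was tested on simulated libraries that were drawn independently and in which few genes changed. That test cannot judge the choice of scaling or the missing block. Libraries of the same replicate number deviated together from their time point in each of 18 pairs (correlation 0.290 to 0.603, against -0.396 to 0.0807 over 36 pairs of different numbers), so the numbers, which come from the labels, pair the samples. Libraries of the same time differed beyond sampling noise (chi-square per degree of freedom 3.20 to 8.65). Totals of 9147018 to 11194705 counts set the counting error.

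Exons, lengths and 3′ UTRs are those of Ensembl canonical transcripts in GENCODE version 44 (GRCh38), which is not the labels' build. Alternatives were library totals, DESeq2 1.42.0 size factors and its Wald test, GAPDH plus ACTB scaling, other count filters, a replicate block, and leaving out replicates, 0 h or 4 h. A gene of the related lists is not reported here.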

Additional observations from a re-analysis of the deposited data

How the results depend on the processing

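The choice of scaling moved the calls most. With GAPDH plus ACTB scaling the slope called 28 transcripts lower and 0 higher, and 4 h against 0 h called 29 lower and 0 higher (edgeR; also 0 higher at an unadjusted p below 0.05). With library totals 7 were higher by either measure. Of all 12032 genes at 4 h, 7612 were lower and 111 higher with GAPDH plus ACTB, and 4618 and 2121 with library totals. Without the 4 h libraries the slope called 3 lower and 11 higher, and the cytosolic minus mitochondrial median slope was 0.051. Of all 12060 genes tested in that fit, 2215 were lower and 1447 higher. At 1 h, 0 were lower without replicate 1 or 2 (edgeR; 1 at an unadjusted p below 0.05 in each) and 1 without replicate 3, and the replicate block called 5 higher. Of all tested genes, 31, 1 and 157 were lower at 1 h without replicate 1, 2 and 3. Per kb of coding sequence the level difference at 0 h was 2.63. With the replicate block, the slope called 10 lower and 24 higher, the pairing adding FARSA, TARS, AARS, NARS2 and AIMP1, and at 4 h it added AARS, SARS and GARS as higher and FARSA and TARS as lower; beside these and the 5 at 1 h it changed no call of the 38. Of all 12032 genes, the blocked fits called 4182 lower and 4356 higher by slope, and 4328 and 4429 at 4 h. Among the related genes and markers the block changed the slope calls of SLC3A2, SEPSECS and RPP30 (falling) and of ASNS, PSAT1, MTHFD2, SLC1A5, XPOT, GCN1 and PRKCB (rising), and of no others. The slope difference between compartments was 0.022 with the block. Leaving out a replicate gave 7 to 8 lower and 16 to 20 higher by slope. Of all tested genes, 3468 to 3682 were lower and 2968 to 3329 higher in these fits. DESeq2's size factors and its Wald test left the slope call of all 38 as it was.

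Signs that turned with library totals were those of CARS (-0.017), GARS (-0.0088), SARS (-0.015), LARS2 (-0.0017), NARS2 (-0.0019) and AIMP1 (-0.0089). With GAPDH plus ACTB scaling 25 slopes turned negative: AARS -0.085, CARS -0.116, DARS -0.055, EPRS -0.092, FARSB -0.082, GARS -0.108, HARS -0.081, IARS -0.066, KARS -0.043, LARS -0.034, MARS -0.078, NARS -0.071, QARS -0.011, SARS -0.115, WARS -0.031, YARS -0.060, AARS2 -0.079, CARS2 -0.028, EARS2 -0.056, IARS2 -0.078, LARS2 -0.100, NARS2 -0.101, RARS2 -0.067, SARS2 -0.067 and AIMP1 -0.108. These turns come with the shift of the median gene by -0.138. Without spike-ins the data cannot tell which scaling is right, and transcripts of few counts, PARS2 above all, are limited by depth.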
